A study of Mus musculus with 768 samples.

Results

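The 6 genes followed here belong to the major histocompatibility complex class I (MHC class I) presentation pathway and were measured in single mouse cells being programmed towards motor neurons. They are the 6 rows named B2M, H2-K1, H2-D1, TAP1, TAP2 and TAPBP, of 27723 genes in a table that writes every symbol in capitals, and all 6 rows were found. They were chosen by name, and B2M (B2m below) was picked because its mean level was higher at 30 h than at 6 h. That contrast is therefore given for all 6 genes as a description and supports nothing.

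Every cell came from the embryonic stem cell line Ainv15(iNgn2.Isl1.Lhx3.V5), whose inducible cassette of the transcription factors Ngn2, Isl1 and Lhx3 with a V5 tag is switched on by doxycycline. All groups, 0 h included, carry the cassette. They are labelled by the time after doxycycline (3 µg/ml) was added to embryoid bodies, which are floating aggregates formed 2 days earlier. The 0 h cells received no doxycycline. How many clones and cultures stand behind each time point is not stated in the labels. Viable cells were sorted on fluorescein diacetate, 96 at each of 0, 6, 12, 18, 24, 30, 36 and 48 h, and full-length RNA libraries were made by SMART-Seq2. Each time point is 1 sample. No test between time points was possible, every SD below is between cells of 1 sample, and "at least 2-fold" is a size and no more. A difference of means smaller than such an SD does not show that the means were alike. Levels are in TPM, a transcript abundance scaled to a fixed total per cell and corrected for transcript length, so that levels of different genes can be set side by side.

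The time points fell into 2 sets that were not compared with each other. At 0, 12, 36 and 48 h the mean of Sod1, which encodes superoxide dismutase, was 19553 to 65262 TPM, and at 6, 18, 24 and 30 h it was 518 to 807 TPM. Library preparation was split over 2 batches per the labels, whose cells are not identified in the sources used here. A cell was kept if it had 2000 or more genes above 0: 37, 52, 44 and 14 cells at 0, 12, 36 and 48 h, and 53, 56, 55 and 57 cells at 6, 18, 24 and 30 h, 368 of 768 in all. The median number of genes per kept cell was 2141 to 5304 in the Sod1-high set and 6481 to 7484 in the Sod1-low set. From 6 h to 30 h, 7 of 10 pluripotent cell markers passed the filter described below and 5 of these were at least 2-fold lower. Of 13 neuron markers 11 passed and 7 were at least 2-fold higher. Among all passing genes 6.03% were at least 2-fold lower and 13.9% higher. Pou5f1, the pluripotency factor Oct4, averaged 307 TPM at 6 h versus 53.4 TPM at 30 h.

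MHC class I molecules display short peptides from the inside of a cell to CD8 T cells. Each consists of a polymorphic heavy chain, such as mouse H2-K or H2-D, and the invariant light chain β2-microglobulin, the product of B2m. Peptides cut by the proteasome are pumped into the endoplasmic reticulum by the transporter of TAP1 and TAP2 subunits, and tapasin, the product of Tapbp, holds the empty heavy chain at that transporter until a peptide is bound. Pluripotent cells and neurons are both known for low class I display, and interferon is the classical inducer of the pathway.

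B2m is on chromosome 2 (122147687-122153082, RefSeq on GRCm38.p6, plus strand). The other 5 genes lie within 1.35 Mb of the MHC on chromosome 17: Tapbp at 33919478-33929290, H2-K1 at 33996012-34000619, Tap1 at 34187556-34197225, Tap2 at 34204479-34216321 and H2-D1 at 35263094-35267497. H2-K1 is on the minus strand and the others are on the plus strand. The 250 bases before the transcription start are shown for the light chain and both heavy chains, because these 3 promoters carry the same 4 short motifs although B2m sits on another chromosome. The coordinates are chr2:122147437-122147686 (plus strand) for B2m, chr17:34000348-34000597 (minus strand) for H2-K1 and chr17:35262844-35263093 (plus strand) for H2-D1. Sequences are from RefSeq on GRCm38.p6, 5′ to 3′, and capitals mark motif matches on either strand.
B2m: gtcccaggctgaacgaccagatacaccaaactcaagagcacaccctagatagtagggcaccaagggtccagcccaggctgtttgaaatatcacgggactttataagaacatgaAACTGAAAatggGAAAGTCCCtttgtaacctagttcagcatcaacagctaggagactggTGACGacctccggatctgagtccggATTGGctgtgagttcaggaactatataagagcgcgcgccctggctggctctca
H2-K1: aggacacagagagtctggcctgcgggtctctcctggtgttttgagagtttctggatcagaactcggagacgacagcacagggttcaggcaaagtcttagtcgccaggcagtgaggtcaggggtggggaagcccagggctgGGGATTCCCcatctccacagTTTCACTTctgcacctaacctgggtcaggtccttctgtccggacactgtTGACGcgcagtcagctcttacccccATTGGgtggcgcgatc
H2-D1: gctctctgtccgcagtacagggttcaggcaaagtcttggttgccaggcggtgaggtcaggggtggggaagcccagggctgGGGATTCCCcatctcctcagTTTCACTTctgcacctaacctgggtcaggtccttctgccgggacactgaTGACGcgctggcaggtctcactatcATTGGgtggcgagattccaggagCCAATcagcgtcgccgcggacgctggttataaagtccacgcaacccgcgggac

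The motifs searched on both strands were AANNGAAA (the core bound by interferon regulatory factors), GGGANTNNC (a kappa B core), TGACG (the X2 box, which is also the core of a cyclic AMP response element) and CCAAT (the Y box). B2m, H2-K1 and H2-D1 each held all 4, in the order kappa B and interferon core upstream of X2 and then Y, except that the interferon core preceded the kappa B core in B2m. The kappa B match of each heavy chain reads on both strands and is 1 site. Of 32851 promoter windows of the same length, 21.3% held the interferon core, 11.7% the kappa B core, 17.8% the X2 core, 33.8% the Y box and 0.180% (59 windows) all 4. Only these 4 motifs were searched, and the 3 windows are shown because they hold all 4. That share is therefore a background and no measure of how unusual these promoters are. The H2-K1 and H2-D1 windows were identical at 166 of 190 aligned bases (87.4%), while the B2m window matched H2-K1 at 34.3% of bases. The H2-K1 window belongs to the first of 2 listed starts and lies inside the RefSeq gene span, and in GENCODE M21 an alternative first exon of H2-D1 covers its window. The Tap1 window, which overlaps the first exon of its neighbour Psmb9, held 1 X2 core and 1 Y box. The Tapbp window held 2 Y boxes and none of the other 3 motifs. In GENCODE M21 the first exons of Tap1 and Psmb9, and of Tapbp and the antisense Gm19412, overlap on opposite strands, and reads there cannot be told apart without strand. The promoter table used has no Tap2 entry. These matches describe letters in the windows and show no binding.

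B2m, the light chain, was the most often detected member at 6 of the 8 time points. Tapbp was at 0 h, and at 48 h both were above 0 in 4 of 14 cells. In the Sod1-low set the lowest cell was at 0 at every time point, the median was 17.8, 54.5, 81.4 and 65.5 TPM at 6, 18, 24 and 30 h, and the highest cell reached 263, 617, 2029 and 671 TPM. The means were 51.7 ± 63.6 (SD, n = 53 cells), 89.1 ± 115 (n = 56), 138 ± 278 (n = 55) and 108 ± 138 TPM (n = 57). The order of the means was therefore 24, 30, 18 and 6 h, the cells of all 4 time points overlapped, and each step between neighbours in that order was smaller than the SD between cells. B2m was above 0 in 69.8% of cells at 6 h (exact 95% binomial interval 55.7% to 81.7%), 78.6% at 18 h (65.6% to 88.4%), 87.3% at 24 h (75.5% to 94.7%) and 80.7% at 30 h (68.1% to 90.0%). These intervals cover counting error only, and all 4 overlapped.

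**Figure D1:**
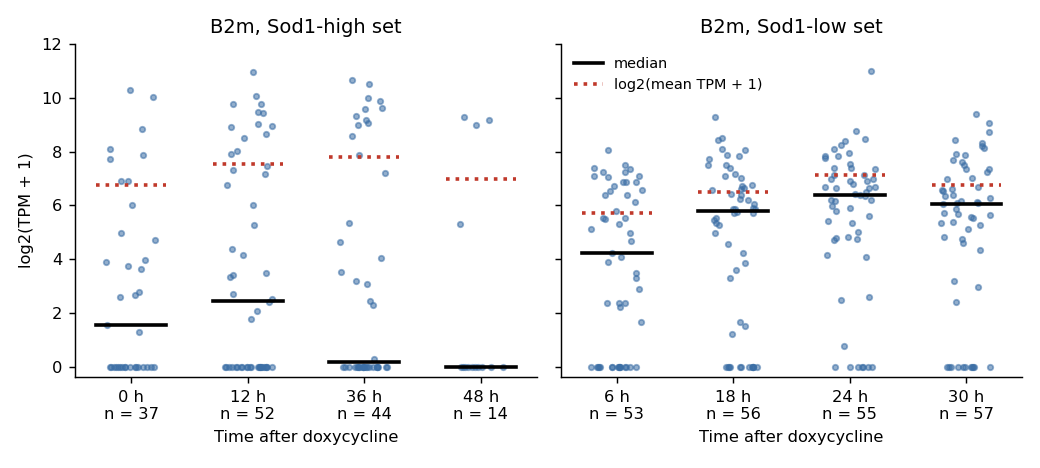
B2m in each kept cell, as log2(TPM + 1), by time after doxycycline in the Sod1-high set (left) and the Sod1-low set (right). Points are cells, black lines are medians over cells and dotted red lines are log2 of the mean TPM plus 1. In the Sod1-low set the median at 6 h is 17.8 TPM and that at 24 h is 81.4 TPM. In the Sod1-high set many cells are at 0 and those above 0 spread widely.

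Folds are log2 ratios of (mean TPM + 1), which understate the change of low genes, and the filter asked of the time point with the higher mean that it reach 10 TPM with 25% or more of cells above 0. B2m was 0.78 higher on the log2 scale at 18 h than at 6 h and 0.63 higher at 24 h than at 18 h. With all 96 cells per time point these ratios were -0.64 and 1.66, so the direction of the first step rests on the cells kept. The ratio was -0.35 for 30 h versus 24 h, and 0.16 in cells with at least 4000 genes. At 30 h versus 6 h, the contrast that chose it, the log2 ratio was 1.05. The single cell at 2029 TPM supplied 26.7% of the summed B2m level at 24 h, and without it the 24 h mean was 103 TPM, above the 98.1 TPM left at 30 h without its highest cell. When all 96 cells per time point were used, the log2 ratio at 30 h versus 6 h was 0.39.

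In the Sod1-high set, which was not used to choose B2m, many cells were at 0 and those above 0 spread widely. The lowest cell was at 0 throughout, the median was 1.92, 4.47, 0.11 and 0 TPM at 0, 12, 36 and 48 h, and the highest cell reached 1260, 1971, 1610 and 624 TPM. The means were 106 ± 274 (n = 37), 187 ± 370 (n = 52), 221 ± 410 (n = 44) and 124 ± 241 TPM (n = 14), so the order was 36, 12, 48 and 0 h, with overlapping cells and steps smaller than the SD. The log2 ratios were 0.81 at 12 h versus 0 h, 0.24 at 36 h versus 12 h, -0.83 at 48 h versus 36 h and 0.23 at 48 h versus 0 h. None reached 2-fold. At 12 h versus 0 h the log2 ratio was 0.11 in cells with at least 4000 genes and -0.59 in all cells, so its direction rests on the cells kept. The later ratios also changed sign with the setting. With medians over cells the ratio was -2.30 at 36 h versus 12 h and -1.55 at 48 h versus 0 h, which was -0.89 with all cells. In cells with at least 1000 genes it was -0.08 at 36 h versus 12 h and 0.07 at 48 h versus 36 h. The share of cells with B2m above 0 was 54.1% at 0 h (36.9% to 70.5%), 55.8% at 12 h (41.3% to 69.5%), 50.0% at 36 h (34.6% to 65.4%) and 28.6% at 48 h (8.39% to 58.1%). Among cells with B2m above 0 the median was 27.7 TPM at 0 h, 158 TPM at 12 h, 310 TPM at 36 h and 539 TPM at 48 h, while the median number of genes per cell was 5304 at 0 h, 2894 at 36 h and 2141 at 48 h. The part of the number of genes in these levels was not tested.

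Among cells near the gene-number threshold, B2m was above 0 in 7 of 48 cells with 1500 or more but under 2000 genes, and in 6 of 22 cells with 2000 or more but under 2500 genes. Over the cells left out at each time point its share was 1.92% at 36 h to 14.6% at 24 h.

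H2-K1, one of the classical heavy chains, was detected in about as many Sod1-low cells at 18, 24 and 30 h and in fewer at 6 h. The lowest cell was at 0 throughout, the median was 0, 1.45, 11.2 and 3.26 TPM at 6, 18, 24 and 30 h, and the highest cell reached 149, 291, 283 and 260 TPM. The means were 10.8 ± 26.6, 23.8 ± 55.6, 37.4 ± 54.4 and 26.6 ± 45.2 TPM, in the same order of time points as those of B2m. Cells overlapped between all 4 time points and neighbouring means differed by less than the SD. The share of cells with H2-K1 above 0 was 32.1% at 6 h (19.9% to 46.3%), 53.6% at 18 h (39.7% to 67.0%), 54.5% at 24 h (40.6% to 68.0%) and 54.4% at 30 h (40.7% to 67.6%). The log2 ratios were 1.07 at 18 h versus 6 h, 0.63 at 24 h versus 18 h, -0.48 at 30 h versus 24 h and 1.23 at 30 h versus 6 h.

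In the Sod1-high set H2-K1 was above 0 in 8 of 37 cells at 0 h, 3 of 52 at 12 h, 6 of 44 at 36 h and 2 of 14 at 48 h. The median was 0 TPM at all 4 time points and the highest cells reached 507, 323, 858 and 396 TPM. The means of 33.2 ± 110, 11.4 ± 55.5, 37.7 ± 147 and 31.8 ± 106 TPM rested on single cells, since the highest cell supplied 41.2%, 54.6%, 51.8% and 89.0% of the summed level. No H2-K1 comparison in this set passed the filter, and no fold is drawn from it.

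H2-D1, the other classical heavy chain, was detected in 40.4% to 52.7% of Sod1-low cells, with lower means than H2-K1 at each of the 4 time points and its own highest mean at 24 h. Its lowest cell was at 0 throughout, its median was 0, 0.76, 2.26 and 0 TPM at 6, 18, 24 and 30 h, and its highest cell reached 95.4, 77.9, 99.3 and 71.0 TPM. The means were 5.42 ± 14.6, 6.87 ± 13.0, 20.0 ± 29.3 and 6.90 ± 14.6 TPM. All 4 ranges overlapped. The share of cells above 0 was 43.4% at 6 h (29.8% to 57.7%), 51.8% at 18 h (38.0% to 65.3%), 52.7% at 24 h (38.8% to 66.3%) and 40.4% at 30 h (27.6% to 54.2%). A level of 10 TPM or more was reached in 11.3%, 25.0%, 40.0% and 21.1% of cells. The log2 ratio was 1.42 at 24 h versus 18 h and -1.41 at 30 h versus 24 h. With all cells in place of those kept, the first of these was -0.60, as the 40 cells left out at 18 h averaged 33.4 TPM, from 2 cells above 0, and the 41 left out at 24 h were all at 0.

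At 0, 12 and 36 h H2-D1 averaged 1.88 ± 5.42, 2.13 ± 4.53 and 1.79 ± 5.42 TPM and was above 0 in 9 of 37, 13 of 52 and 6 of 44 cells. At 48 h only 1 of 14 cells was above 0, at 136 TPM. The 2 heavy chains share sequence: of the 50-base windows of the H2-K1 transcript, the read length used here, 6.94% also occur in H2-D1 and 8.79% in any other gene. Of the H2-D1 windows 14.3% occur in another gene, most of them in H2-Q1. No window of B2m was shared. The labels do not say how reads that fit several genes were divided, so levels of H2-K1 and H2-D1 are uncertain to that extent.

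**Figure D2:**
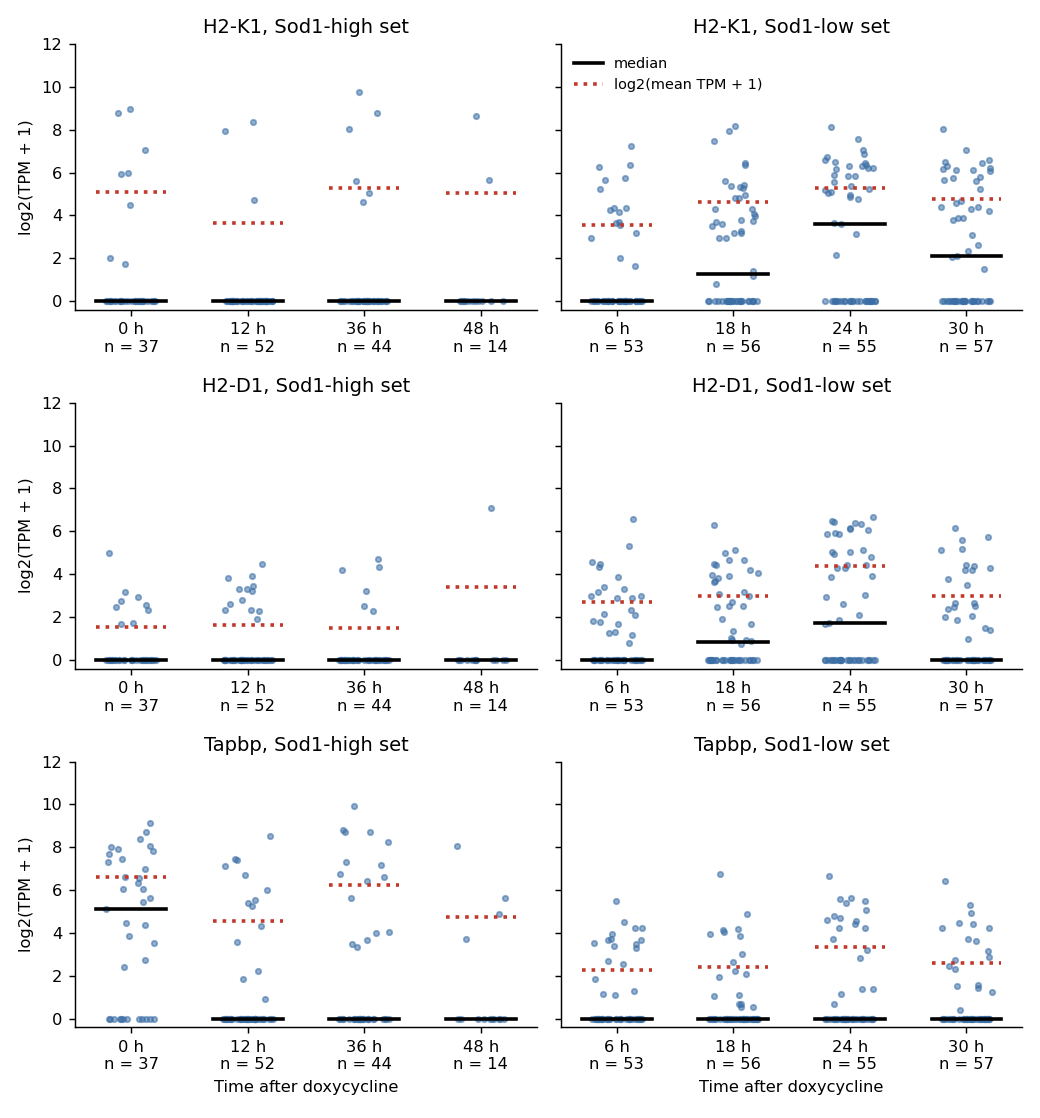
H2-K1, H2-D1 and Tapbp in each kept cell, as log2(TPM + 1), by time after doxycycline in the Sod1-high set (left) and the Sod1-low set (right), drawn as for B2m. H2-K1 and H2-D1 are above 0 in 32.1% to 54.5% of Sod1-low cells and reach their highest means of that set at 24 h. Within the Sod1-high set the mean of Tapbp is highest at 0 h, where its median is 33.8 TPM.

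The peptide transporter was rarely detected. Tap1, one subunit of the pump, was above 0 in 9 of 53 cells at 6 h, 9 of 56 at 18 h, 7 of 55 at 24 h and 10 of 57 at 30 h (17.0%, 16.1%, 12.7% and 17.5%), with a median of 0 TPM throughout and highest cells of 25.7, 36.4, 76.4 and 93.2 TPM. The means were 1.67 ± 5.29, 1.41 ± 5.40, 2.77 ± 11.8 and 4.99 ± 16.0 TPM. In the Sod1-high set it was above 0 in 2 of 37, 4 of 52, 2 of 44 and 1 of 14 cells at 0, 12, 36 and 48 h, and single cells of 297 TPM at 0 h and 271 TPM at 12 h supplied 98.8% and 84.8% of the summed level. Tap2, the partner subunit, was above 0 in 4 of the 368 kept cells: 2 at 18 h, 1 at 24 h (9.58 TPM) and 1 at 36 h (514 TPM). At 6 and 30 h Tap2 was at 0 in every kept cell. A limit of 3 cells of the total puts its share there at no more than 5.66% and 5.26%, and the exact upper bounds were 6.72% and 6.27%. These limits cover counting error and cells with a value above 0, not cells that express the gene. Tap1 and Tap2 were found together in 1 cell, at 18 h. Neither subunit passed the filter in any comparison.

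Within the Sod1-high set Tapbp (tapasin) had its highest mean before doxycycline. At 0 h its lowest, median and highest levels were 0, 33.8 and 567 TPM, with a mean of 96.4 ± 136 TPM (n = 37) and 67.6% of cells above 0 (50.2% to 82.0%). At 12 h they were 0, 0 and 368 TPM, with a mean of 22.6 ± 63.7 TPM (n = 52) and 26.9% of cells above 0 (15.6% to 41.0%). The median number of genes per cell was 5304 at 0 h and 4268.5 at 12 h, and summed fibroblast markers averaged 77.8 and 252 TPM. Their part in the Tapbp levels was not tested. The log2 ratio was -2.05 at 12 h versus 0 h, and -2.33 without the highest cell of each time point. With all 96 cells it was -0.31: the only 1 of the 44 cells left out at 12 h with Tapbp above 0 brought the mean of those cells to 68.5 TPM.

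At 36 h Tapbp averaged 73.6 ± 181 TPM (n = 44, highest 968) with 36.4% of cells above 0, and at 48 h 25.6 ± 71.5 TPM (n = 14, highest 269) with 28.6%. The median was 0 TPM at both. The log2 ratio was 1.66 at 36 h versus 12 h, -1.49 at 48 h versus 36 h and -1.87 at 48 h versus 0 h, and 1 cell supplied 75.1% of the 48 h sum. Without the highest cell of each time point the last 2 ratios were -2.78 and -3.42. The ratio at 36 h versus 12 h was 0.10 with all 96 cells, and 0 with medians over cells. In the Sod1-low set Tapbp stayed between 3.90 ± 7.94 and 9.09 ± 18.6 TPM, with a median of 0 and 32.1% to 36.4% of cells above 0 at all 4 time points, and passed the filter in no comparison. The antisense gene Gm19412 shares 904 exon bases with Tapbp, and without strand their reads could not be told apart. The Tapbp neighbour Rgl2 encodes a Ral guanine nucleotide exchange factor. Its mean was 101, 103, 8.27 and 51.5 TPM at 0, 12, 36 and 48 h. Pfdn6, a prefoldin subunit on the same side, averaged 117, 204, 83.8 and 59.8 TPM.

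**Figure D3:**
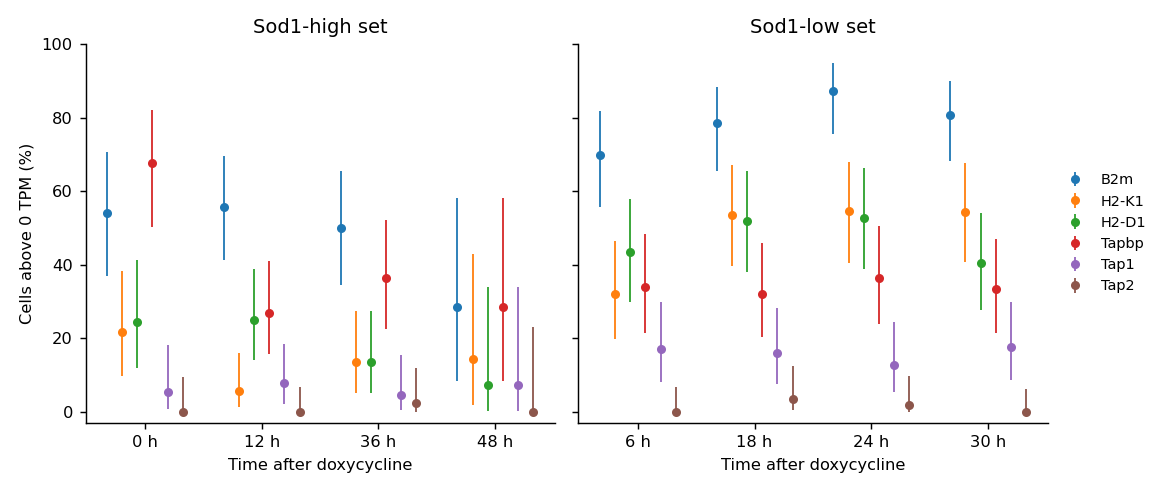
Percent of kept cells above 0 TPM for each of the 6 genes by time after doxycycline, in the Sod1-high set (left) and the Sod1-low set (right). Points are shares and bars are exact 95% binomial intervals, which cover counting error only; B2m lies highest except at 0 h, where Tapbp is at 67.6%, and at 48 h, where both are at 28.6%, and Tap2 lies at or near 0 throughout.

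At most 3 members passed the filter in any comparison, and at most 2 of them differed by 2-fold or more. At 30 h versus 6 h, 2 of the 6 passed the filter and both, B2m and H2-K1, were at least 2-fold higher, beside 13.9% of 6317 passing genes that were at least 2-fold higher and 6.03% that were lower. B2m was chosen on this contrast, so nothing is read from that count. At 18 h versus 6 h, 1 of 2 passing members (H2-K1) was at least 2-fold higher and none lower, beside 11.8% and 7.36% of all passing genes. At 24 h versus 18 h, 1 of 3 (H2-D1) was higher and none lower, beside 9.05% and 6.40%. At 30 h versus 24 h none of 3 was higher and 1 (H2-D1) lower, beside 2.30% and 1.91%.

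In the Sod1-high set only B2m and Tapbp passed the filter. At 12 h versus 0 h neither was at least 2-fold higher and Tapbp was lower, beside 17.0% and 13.0% of all passing genes. At 36 h versus 12 h Tapbp was higher and none lower, beside 19.4% and 24.8%. At 48 h versus 36 h none was higher and Tapbp lower, beside 17.5% and 28.6%. At 48 h versus 0 h none was higher and Tapbp lower, beside 22.8% and 43.4%, so that a gene at least 2-fold lower was common in this last comparison. A gene that passes only through its high time point had to differ, and these counts over 2 or 3 genes show no more than the values above.

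A complete class I molecule needs the light chain and a heavy chain in the same cell. B2m and at least 1 of H2-K1 and H2-D1 were both above 0 in 34.0% of cells at 6 h (21.5% to 48.3%), 58.9% at 18 h (45.0% to 71.9%), 67.3% at 24 h (53.3% to 79.3%) and 59.6% at 30 h (45.8% to 72.4%). B2m was picked for its higher mean at 30 h than at 6 h, so these shares are not independent of that choice. The share of cells with B2m multiplied by the share with a heavy chain came to 36.9%, 56.1%, 66.6% and 56.6% at these time points, close to the shares found together. In the Sod1-high set the share was 21.6%, 21.2%, 9.09% and 14.3% at 0, 12, 36 and 48 h. Cells with B2m but neither heavy chain made up 35.8% at 6 h and 19.6% to 21.1% at 18, 24 and 30 h. Cells with a heavy chain and no B2m made up 9.09% to 18.9% in the Sod1-low set. B2m, a heavy chain and Tapbp were all above 0 in 5 of 53 cells at 6 h, 13 of 56 at 18 h, 16 of 55 at 24 h and 14 of 57 at 30 h. With Tap1 as well, the counts were 0, 3, 3 and 4 cells. A value of 0 in these libraries can be a missed transcript.

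**Figure D4:**
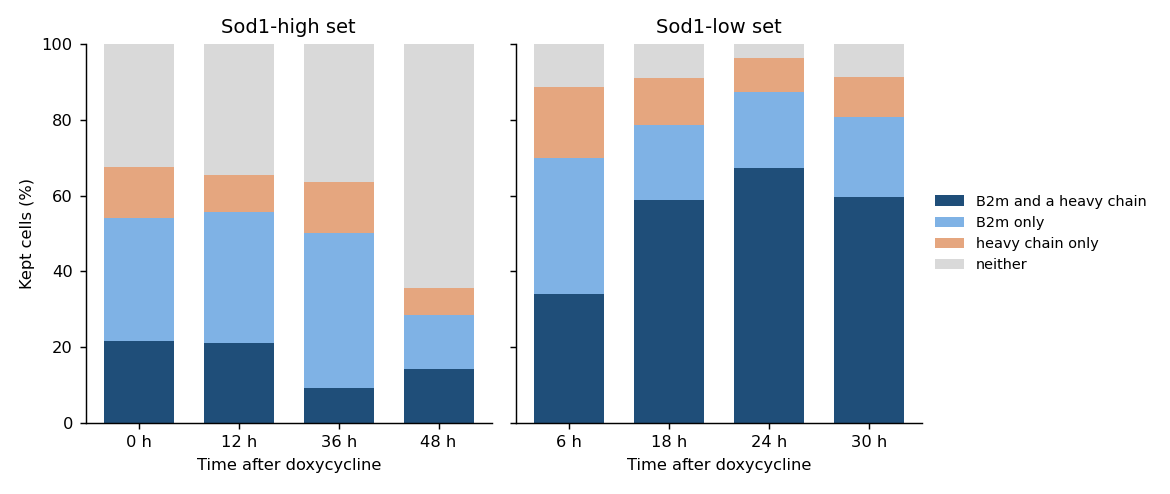
Percent of kept cells in which B2m and at least 1 classical heavy chain (H2-K1 or H2-D1), B2m only, a heavy chain only, or neither was above 0 TPM, by time after doxycycline in the Sod1-high set (left) and the Sod1-low set (right). The darkest part of the bars is 34.0% at 6 h and 67.3% at 24 h in the Sod1-low set and is at most 21.6% in the Sod1-high set. It contains B2m, which was picked for its higher mean at 30 h than at 6 h.

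Between cells of 1 time point the levels of the members were only weakly related. The Spearman correlation of B2m with H2-K1 was 0.03, 0.13, -0.08 and 0.14 at 6, 18, 24 and 30 h, and that with H2-D1 was -0.16, -0.003, -0.16 and -0.18. For B2m with Tapbp it was 0.19, 0.01, 0.12 and 0.23. H2-K1 and H2-D1 gave 0.31, 0.09, 0.18 and -0.02. The largest mean over the 4 time points among the 10 pairs was 0.21, between H2-K1 and Tap1. The correlation of B2m with the number of genes above 0 had a mean of 0.13. These are descriptions over cells that count as 1 sample per time point, and correlations this weak in sparse values are no finding.

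Of 4848 genes above 0 in at least 50% of cells at each of 6, 18, 24 and 30 h, the 8 whose levels were most like those of B2m over 221 cells also had low correlations. They were Wls (a carrier of Wnt ligands, mean Spearman correlation 0.32), Ccng1 (cyclin G1, 0.31), Dppa4 (a pluripotency-associated nuclear protein, 0.31), Peci (an enoyl-CoA isomerase, 0.30), Vcan (the matrix proteoglycan versican, 0.30), BC071253 (0.29), Pcdha1 (a protocadherin, 0.29) and Arhgap28 (a GTPase-activating protein, 0.28). The value for Wls was -0.09 at 24 h and that for Pcdha1 was -0.01 at 24 h. The other 5 members were above 0 in too few cells to be compared in this way.

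B2m was set beside genes that mark cell state. Stmn2, a neuronal microtubule regulator, was above 0 in 49 of 57 cells at 30 h, and B2m averaged 108 ± 132 TPM in these and 111 ± 178 TPM in the other 8. Pou5f1 was above 0 in 29 cells at 30 h, with B2m at 94.7 ± 90.4 TPM, and at 0 in 28 cells, with B2m at 122 ± 175 TPM. Lhx3, a factor of the cassette, was above 0 in 39 cells with B2m at 108 ± 138 TPM, and at 0 in 18 cells with B2m at 109 ± 141 TPM. T (brachyury, a mesoderm factor) was above 0 in 18 cells with B2m at 76.2 ± 112 TPM, and at 0 in 39 cells with B2m at 123 ± 147 TPM. All of these differences were smaller than the SD between cells, which is a spread of cells and not the uncertainty of a mean. The Spearman correlation of B2m with Krt8, an epithelial keratin, was 0.47 at 30 h, but 0.21, 0.12 and -0.13 at 6, 18 and 24 h. With T it was 0.15, -0.24, -0.17 and -0.21 at 6, 18, 24 and 30 h. At 18 h B2m averaged 66.0 ± 130 TPM in cells with T above 0 and 104 ± 104 TPM in the others. At 24 h these means were 83.3 ± 103 and 165 ± 330 TPM. They were 66.6 ± 44.5 and 50.4 ± 65.1 TPM at 6 h, where only 4 cells had T above 0. The relation of T and B2m was not tested.

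Around the members the rest of the pathway was described from lists of genes by role. Of 26 nonclassical class I heavy chains 22 were in the table, and 1 passed at 30 h versus 6 h, under 2-fold. This was H2-T23, the Qa-1 heavy chain that presents to natural killer cell receptors, with medians of 585, 168, 199 and 146 TPM at 6, 18, 24 and 30 h. Its lowest cell was at 28.2 TPM at 6 h and at 0 at the other time points of that set, and its highest cell reached 76262, 17532, 1420 and 62376 TPM. Its means of 3334 ± 12662, 677 ± 2351, 276 ± 296 and 1895 ± 9182 TPM were set by few cells. In the Sod1-high set the median was 114, 93.5, 34.4 and 29.6 TPM at 0, 12, 36 and 48 h. H2-T23 was above 0 in more cells than either classical heavy chain at all 8 time points, and 28.8% of its 50-base windows occur in other genes.

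Of 18 peptide-loading chaperones and peptidases 17 passed at 30 h versus 6 h. Of these 1 was at least 2-fold higher and none was lower. Among all passing genes 13.9% were at least 2-fold higher and 6.03% lower, the shares to set the list counts against. The median log2 ratio of 0.19 lay beside 0.20 over all passing genes, the value to set the other lists against. The gene at least 2-fold higher was Tapbpl, the tapasin-like peptide editor, with 6.42 ± 21.9 TPM at 6 h and 31.7 ± 202 TPM at 30 h. A single cell at 1515 TPM made that mean, which was 5.18 TPM without it. Ganab, a glucosidase that trims new glycoproteins, had a log2 ratio of 0.75, Npepps, a cytosolic aminopeptidase, 0.65, and Pdia3, the disulfide isomerase of the loading complex, 0.65.

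Of 9 proteasome genes (the inducible subunits, their standard counterparts and the activators) 7 passed at 30 h versus 6 h, with 1 at least 2-fold higher, 1 lower and a median log2 ratio of -0.17. Psme2 and Psme1, which form the PA28 activator of the proteasome, averaged 109 ± 113 and 92.1 ± 106 TPM at 6 h and 225 ± 202 and 175 ± 171 TPM at 30 h, log2 ratios of 1.04 and 0.92. Psmb10, an inducible catalytic subunit, averaged 23.6 ± 30.9 TPM at 6 h and 10.6 ± 19.8 TPM at 30 h, a log2 ratio of -1.09. Psme3, a nuclear activator, had a log2 ratio of 0.62. Psmb8 and Psmb9, the other inducible subunits and the neighbours of Tap1, averaged at most 1.15 and 3.02 TPM at any time point. H2-Ob, next to Tap2, was listed at 0 in every kept cell.

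Of 23 regulators of class I transcription 9 passed at 30 h versus 6 h, with 1 at least 2-fold higher, 1 lower and a median log2 ratio of 0.49. Atf1, a factor that binds cyclic AMP response elements, had a log2 ratio of -1.04, Usf2, an E-box factor, 0.80, and Nfyc, a subunit of the CCAAT-binding factor NF-Y, 0.73.

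Of 31 interferon receptors and response genes only 6 passed at 30 h versus 6 h, with 1 at least 2-fold higher, 3 lower and a median log2 ratio of -0.55. Xaf1, an interferon-induced promoter of apoptosis, averaged 54.9 ± 141 TPM at 6 h, 15.9 ± 45.9 TPM at 18 h, 15.1 ± 54.2 TPM at 24 h and 2.40 ± 5.93 TPM at 30 h. Ifitm1 and Ifitm3, membrane proteins that restrict virus entry, had log2 ratios of -1.10 and -1.06. Jak1, the kinase of the interferon receptors, had 1.45. Of 23 genes listed under trafficking and turnover 21 were in the table and 12 passed, with a median of 0.48. The list also holds surface ligands, and the 1 gene at least 2-fold higher and the 1 lower were of that kind. They were Cd47, the "do not eat me" signal (1.93), and Raet1e, a ligand of the activating receptor NKG2D (-1.23). Rab11a, a recycling endosome GTPase, and Surf4, a cargo receptor, had 0.94 and 0.90.

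**Figure D5:**
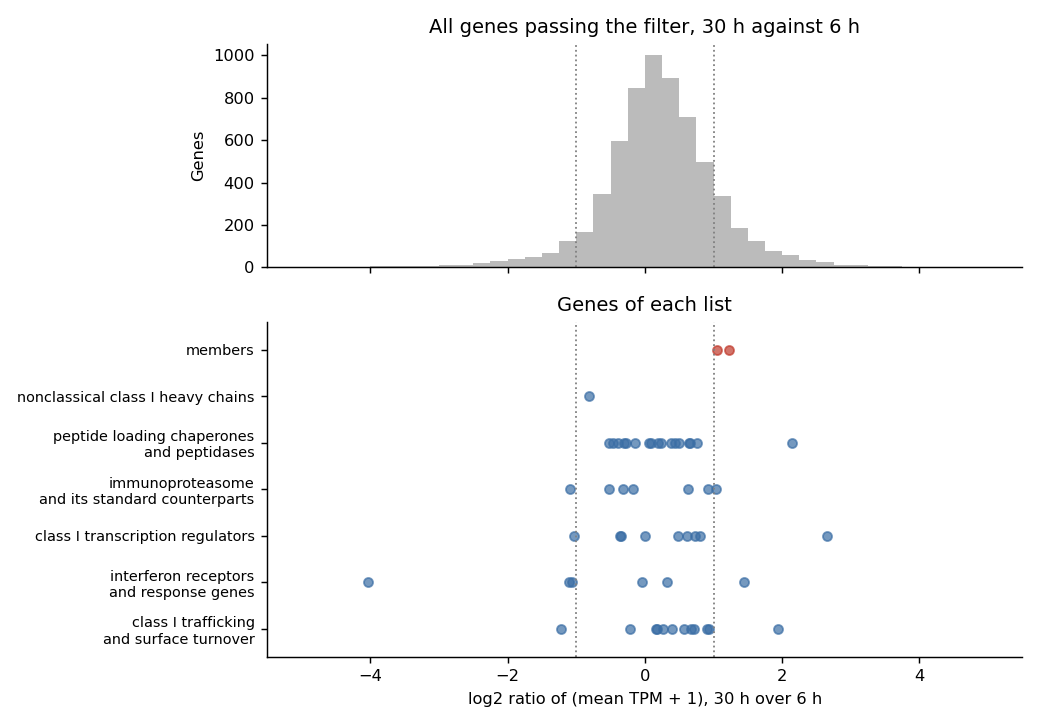
Top, number of genes by log2 ratio of (mean TPM + 1) at 30 h over 6 h, for all 6317 genes passing the filter. Bottom, the same ratio for the passing genes of each list, 1 point a gene, with dotted lines at 2-fold; the 2 passing members lie at 1.05 and 1.23 and most other pathway genes lie within 2-fold.

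Markers of other cell types were counted beside the members. Of 17 class II and immune cell markers 1 passed at 30 h versus 6 h, Cd68, a lysosomal protein of macrophages, at 10.7 ± 24.0 TPM for 6 h and 1.34 ± 5.66 TPM for 30 h. In these time points 5 and 8 of the 17 were at 0 in all cells, and the class II chain H2-Aa, Cd14 and Aif1 were at 0 in every kept cell of the Sod1-low set. The summed level of the list per cell averaged 30.4 TPM (0 to 205) at 6 h, 14.3 TPM (0 to 138) at 18 h, 14.7 TPM (0 to 199) at 24 h and 10.6 TPM (0 to 181) at 30 h. The median of this sum over cells was 12.3 TPM at 6 h and 0 TPM at 18, 24 and 30 h. Summed fibroblast markers averaged 27.1 TPM (0 to 413) at 6 h and 24.4 TPM (0 to 226) at 30 h, with 1 of 10 passing. Endoderm markers averaged 121 TPM at both (0 to 461 and 0 to 410), with 3 of 12 passing. At 18 and 24 h the fibroblast sums averaged 32.3 and 25.2 TPM, and the endoderm sums 67.6 and 144 TPM. Of the fibroblast list, the collagen gene Col1a2 was above 0 in 60.4% to 71.4% of cells at the 4 time points, while Col3a1 and Postn were at 0 in every kept cell of the Sod1-low set. Of the 10 fibroblast markers 4, 4, 3 and 4 were at 0 in all kept cells at 6, 18, 24 and 30 h. Of the endoderm list, Sparc and Lamb1, which encode matrix proteins, were above 0 in 94.3% and 86.8% of cells at 6 h, with means of 85.3 and 17.1 TPM. Sox17 was at 0 in every kept cell of the Sod1-low set. Of the 12 endoderm markers 3, 2, 4 and 5 were at 0 in all kept cells at 6, 18, 24 and 30 h. Summed fibroblast markers of the Sod1-high set averaged 77.8, 252, 157 and 131 TPM at 0, 12, 36 and 48 h, and the endoderm markers 157, 223, 107 and 68.4 TPM. Col1a2 averaged 51.3 TPM at 0 h and 247 TPM at 12 h, where it was above 0 in 84.6% of cells. At 12 h versus 0 h, 2 of the 3 passing endoderm markers were at least 2-fold higher, beside 17.0% of all passing genes. Mesoderm and streak markers summed to 1.56 TPM (0 to 12.6) at 6 h and 56.8 TPM (0 to 638) at 30 h, with T as the 1 of 8 that passed. The part of these cells in the levels of the members was not tested. No endothelial or trophoblast marker passed at 30 h versus 6 h, and the sums of these lists averaged 1.78 and 2.52 TPM at 30 h. Cdx2 and Hand1 of the trophoblast list were at 0 in the Sod1-low set. Of the 6 trophoblast markers 2, 3, 2 and 4 were at 0 in all kept cells at 6, 18, 24 and 30 h.

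The annotated span of Patl2 on the minus strand (122120108-122186189) covers the whole of B2m, with 0 exon bases in common in GENCODE M21. Patl2 and 2 further genes near B2m, Trim69 and Terb2, averaged at most 6.28, 1.53 and 4.89 TPM, and Spg11, the spatacsin gene, 2.74 to 26.8 TPM. Beside H2-D1, Ddx39b, an RNA helicase of the spliceosome, averaged 315 TPM at 6 h and 399 TPM at 30 h, a log2 ratio of 0.34. Pfdn6, a prefoldin subunit near Tapbp, averaged 232 and 134 TPM, a log2 ratio of -0.79. The noncoding AA388235 beside H2-K1 averaged 6.23 and 13.8 TPM, a log2 ratio of 1.03. H2-K2, a pseudogene on that side, averaged at most 4.29 TPM.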

How the data were processed

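Single-cell SMART-Seq2 libraries without molecular tags were sequenced by the authors with 50 bp single-end reads at 325000 reads per cell on average, per the labels' protocols. TPM values were deposited by the authors for 768 cells, whose columns sum to 1000000 within rounding. Tools named in the submitters' processing notes are Picard and bcl2fastq, and the genome is mm10. Column names contain the word rsem. Neither aligner nor annotation is given in the sources used here. TPM keeps no depth, so the number of genes above 0 stood in for it, and TPM are shares of a cell's total, which abundant genes can depress for the rest.

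Groups came from the labels. Means, SDs, medians and shares above 0, with exact (Clopper-Pearson) 95% intervals, were computed over kept cells. A share of 0 has the limit of 3 cells over n. Folds used a pseudocount of 1 TPM, and no test, p-value or standard error was made with 1 sample per time point. The members and lists were chosen with earlier results of these data known. Named genes are the members, up to 4 passing genes per list ranked on their absolute log2 ratio for 30 h versus 6 h, the 8 genes most like B2m, the 2 nearest annotated genes on either side of a member that are in the table, Sod1, Gapdh and 5 cell state genes. Markers named as being at 0 were chosen after their values were seen. One gene that this rule names is not reported here. Of the list genes 207 matched by symbol, 5 by a RefSeq synonym and 6 not. Gapdh, a glycolytic enzyme, averaged 1748 to 11474 TPM. Alternatives were other pseudocounts, centring, medians, other cell filters, no filter on low values and other detection limits. Folds and correlations were tested on simulated data. Computations ran in Python 3.11.15 with pandas 2.3.3, numpy 2.4.6 and scipy 1.17.1, and plots in matplotlib 3.10.9.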

Additional observations from a re-analysis of the deposited data

How the results depend on the processing

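Of 138 alternative values of the 18 folds whose gene passed the filter, 109 moved by less than 1.5-fold and 29 moved more. The sign changed in 9 values, 8 of B2m folds that were under 2-fold and 1 of H2-D1. With the median over cells in place of the mean, the log2 ratio at 30 h against 6 h was 1.82 for B2m and 2.09 for H2-K1, and that of Tapbp at 12 h against 0 h was -5.12. With all cells the B2m ratio was 0.39 and the Tapbp ratio -0.31, and H2-D1 at 24 h against 18 h turned to -0.60. The 2 members at least 2-fold higher at 30 h against 6 h became 0 with a pseudocount of 10 TPM, and 1 with the median ratio set to 0 (a shift of 0.20), with all cells or with cells of at least 1000 genes. At 12 h against 0 h, 1 member was at least 2-fold higher without the highest cell of each gene, 0 were lower with all cells, and 2 were lower with no filter on low values. Cells with at least 4000 genes gave no value for 36 h against 12 h, 48 h against 36 h or 48 h against 0 h, since no cell at 36 or 48 h had that many. Of 180 alternative shares 74 left the 95% interval, 37 of them with detection counted only among the 1000 highest genes of a cell and 25 with all cells. All 16 alternative values of the 8 correlations of B2m stayed within the SD over time points. This shows little, since the alternatives used most of the same cells from which these 8 genes were picked. That SD was also wide for genes such as Wls, whose values ran from -0.09 at 24 h to 0.49 at 6 h. No paired analysis was possible because no result comes from a test, and cell numbers name wells, not pairs. With 1 sample per time point and values of 0 that can be missed transcripts, low members such as Tap1 and Tap2 are measured poorly.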
